A study of Mus musculus with 8 samples.

Results

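The 9 genes described here encode chemokine receptors of mononuclear phagocytes: Cx3cr1, Ccr2, Ccr1, Cxcr3, Cxcr4, Ccrl2, Ccr7, Ccr9 and Ccr6. A gene was included when the array carried a probe set annotated to that gene alone, and with several such probe sets the one with the highest mean over the 8 arrays would have been taken. All 9 had exactly 1 such probe set, out of 19938 genes measured this way, and 0 were dropped. Cells were isolated by fluorescence-activated sorting of digested colonic lamina propria or spleen of C57BL/6 mice, and each of 8 groups had 1 array.

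All groups shared the genotype Cx3cr1gfp/+, in which a fluorescent reporter replaces 1 Cx3cr1 allele, so every array, steady-state ones included, came from cells with 1 working copy of that gene. On day 4 of colitis induced with Dextran Sodium Sulphate, a chemical that injures the colonic epithelium, the sorted cells were colonic CX3CR1int Ly6Clo cells, colonic CX3CR1int Ly6Chi cells, colonic CX3CR1hi F4/80hi cells and splenic Ly6Chi monocytes. At steady state they were colonic CX3CR1hi F4/80hi cells, colonic CX3CR1hi macrophages that monocytes had reconstituted, colonic CX3CR1hi resident macrophages and splenic Ly6Chi monocytes. By label, the reconstituted, the resident and the steady-state splenic array came from female mice and the remaining 5 from male mice. The sources used here do not give the age of the mice, how many stood behind an array or whether they were pooled. For tests, the arrays were taken by sort gate and tissue as 3 populations: CX3CR1int (n = 2), CX3CR1hi (n = 4) and splenic Ly6Chi (n = 2). Arrays of 1 population differed in colitis, origin, Ly6C gate or sex label, and nothing shows them to be repeats of 1 condition, so p-values measure only the spread between these arrays.

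The gates were checked against marker genes. The mean log2 level of 9 macrophage markers was 9.07 to 9.63 in CX3CR1int arrays, 11.21 to 11.70 in CX3CR1hi arrays and 8.66 to 9.14 in splenic arrays. That of 8 monocyte markers was 8.07 in CX3CR1int Ly6Clo cells, 11.09 in CX3CR1int Ly6Chi cells, 7.34 to 7.65 in CX3CR1hi arrays and 11.61 to 11.65 in splenic arrays. The Ly6Clo array stood apart from the other 7 in 12 dendritic cell markers, with a mean of 10.94 against 7.43 to 8.87. Colonic arrays also carried epithelial RNA, 12 markers averaging 9.29 to 11.36 in the colonic arrays and 5.11 to 5.95 in the splenic ones. The means of 5 plasma cell markers were 7.40 to 9.45 in the colonic and 5.44 to 5.84 in the splenic arrays. Those of 8 stromal markers were 6.22 to 7.69 and 5.41 to 5.43. The steady-state splenic array carried Xist at 10.04 and the Y-linked gene Eif2s3y at 10.28, so its RNA went against its female label in part. Called differences and counts of receptor and related genes against splenic cells are therefore also given without it.

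Chemokine receptors are membrane proteins with several transmembrane helices that couple to inhibitory G proteins and steer cells along gradients of small secreted ligands. Ly6Chi monocytes leave the bone marrow and enter inflamed tissue through CCR2, whereas CX3CR1, the receptor of fractalkine, marks macrophages settled in the gut wall. CCR7 guides antigen-presenting cells from tissue through lymph vessels to lymph nodes. In bulk samples such as these, fewer cells of a type that carry a transcript and less of it per cell cannot be told apart.

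Of the 9 genes, 5 lie on chromosome 9 in the GRCm38.p6 assembly, in the order Ccrl2, Cx3cr1, Ccr9, Ccr1 and Ccr2. Ccr9 and Ccr1 are separated by 179 kb and Ccr1 and Ccr2 by 133 kb, whereas Cx3cr1 and Ccr9 are 3700 kb apart and Ccrl2 and Cx3cr1 8990 kb. Cxcr3 lies on chromosome X, Cxcr4 on chromosome 1, Ccr7 on chromosome 11 and Ccr6 on chromosome 17. The promoters of Ccr1 and Ccr2 are shown because these neighbouring genes had unlike patterns over the arrays, that of Cx3cr1 because its locus set the gate, and that of Cxcr3 because its 4 CX3CR1hi arrays stood clear of all others. Each sequence is from RefSeq and runs from 250 bases before to 50 bases after an annotated start, on the strand of its gene. The Ccr2 gene begins at position 124101918, before the window shown, so that window lies inside the annotated gene. The windows are chr9:123968643-123968942 (minus strand) for Ccr1, chr9:124101933-124102232 (plus strand) for Ccr2, chr9:120068247-120068546 (minus strand) for Cx3cr1 and chrX:101734098-101734397 (minus strand) for Cxcr3. Capitals mark GAGGAA, or TTCCTC where it is read on the opposite strand, the core bound by the myeloid factor PU.1.
Ccr1: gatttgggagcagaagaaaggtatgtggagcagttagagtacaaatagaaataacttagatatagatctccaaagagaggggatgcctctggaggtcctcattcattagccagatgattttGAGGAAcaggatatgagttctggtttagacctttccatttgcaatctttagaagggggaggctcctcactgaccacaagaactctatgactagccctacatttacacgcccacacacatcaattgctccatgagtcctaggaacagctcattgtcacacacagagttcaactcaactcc
Ccr2: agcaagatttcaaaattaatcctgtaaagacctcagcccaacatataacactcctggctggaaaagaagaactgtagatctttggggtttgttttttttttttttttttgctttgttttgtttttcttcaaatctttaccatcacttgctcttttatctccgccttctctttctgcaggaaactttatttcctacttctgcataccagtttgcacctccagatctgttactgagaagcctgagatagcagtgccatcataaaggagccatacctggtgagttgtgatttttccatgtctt
Cx3cr1: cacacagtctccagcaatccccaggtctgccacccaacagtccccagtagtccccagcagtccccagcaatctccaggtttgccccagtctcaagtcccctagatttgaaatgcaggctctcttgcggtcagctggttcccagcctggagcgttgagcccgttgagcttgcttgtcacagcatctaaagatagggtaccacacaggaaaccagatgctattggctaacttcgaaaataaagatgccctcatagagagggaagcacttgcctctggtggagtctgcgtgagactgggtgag
Cxcr3: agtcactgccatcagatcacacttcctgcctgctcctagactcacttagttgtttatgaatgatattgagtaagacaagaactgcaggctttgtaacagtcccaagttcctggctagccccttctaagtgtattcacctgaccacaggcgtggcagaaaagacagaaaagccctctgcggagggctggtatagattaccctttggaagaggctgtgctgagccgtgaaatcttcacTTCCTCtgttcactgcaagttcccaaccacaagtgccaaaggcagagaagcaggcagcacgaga

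The motif GAGGAA occurred at position -129 of the Ccr1 promoter on the gene's own strand and at position -14 of the Cxcr3 promoter on the opposite strand, counted from the annotated start. It was not in the Ccr2 and Cx3cr1 windows, and the Ccr2 window holds no sequence from before the start of that gene. The table held 11 promoters for 8 of the receptor genes. Of these 11, 3 held the motif (27.3%), the other being 1 of 2 for Ccr6, and 28.3% of all 32851 promoters of the same length held it on either strand. The AP-1 motif TGANTCA was in 0 of the 11 and in 7.81% of all promoters. These matches are descriptions of letters and not of binding.

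Cx3cr1 followed the gate it set. Its log2 signal was 7.51 in CX3CR1int Ly6Clo and 7.95 in CX3CR1int Ly6Chi cells. It was 11.29 in CX3CR1hi F4/80hi cells in colitis, 11.34 in the same cells at steady state, 10.88 in reconstituted and 11.21 in resident macrophages. Splenic monocytes had 9.95 in colitis and 10.76 at steady state. All 4 CX3CR1hi arrays were thus above both splenic arrays, and both of those were above the CX3CR1int arrays, with no overlap.

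The population mean of Cx3cr1 was 7.73 ± 0.31 in CX3CR1int (SD, n = 2), 11.18 ± 0.21 in CX3CR1hi (SD, n = 4) and 10.35 ± 0.57 in splenic cells (SD, n = 2). Because fluorescence from the Cx3cr1 locus selected the cells, the 10.9-fold lower level in CX3CR1int than in CX3CR1hi cells is a description with no test. The spleen gate used Ly6C by the labels. CX3CR1int arrays also lay 2.62 below the splenic mean on the log2 scale. The gap between the 2 splenic arrays (0.81) exceeded the pooled SD within populations (0.33), as did the gap between colitis splenic cells and CX3CR1int Ly6Chi cells (2.00). The gap between reconstituted macrophages, the lowest CX3CR1hi array, and steady-state splenic monocytes (0.12) was within that SD. The 3 genes most like Cx3cr1 over the 8 arrays, by Pearson r among 4979 genes that passed the brightness filter and spanned a log2 range of at least 1, were Scrn3 (0.990), Mxd4 (0.988) and Itgav (0.983), the last encoding the integrin αV chain.

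**Figure D1:**
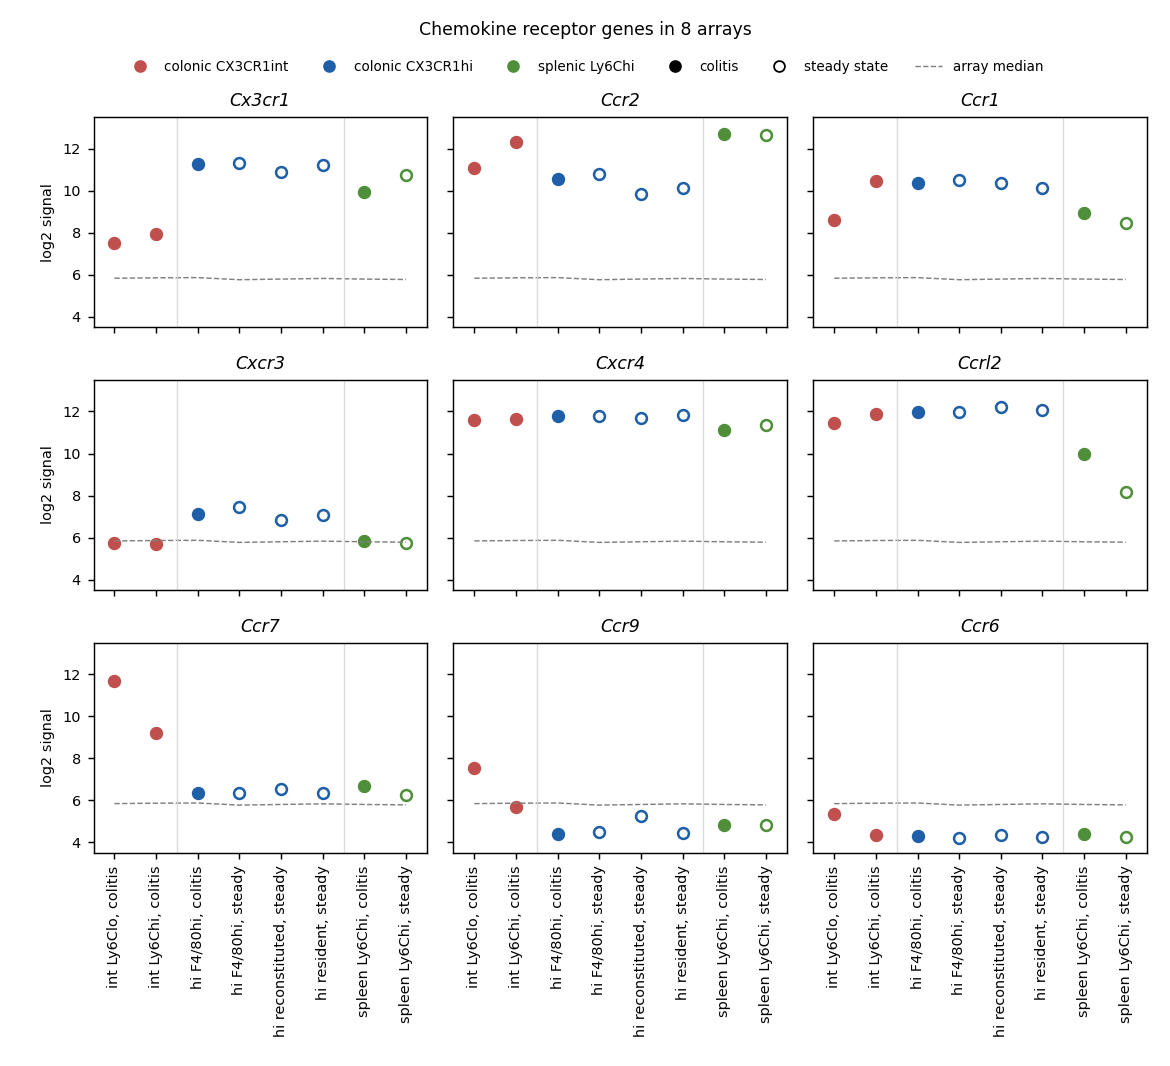
Log2 signal of the 9 chemokine receptor genes (vertical axes) in each of the 8 arrays (horizontal axes), coloured by population, with filled points for colitis, open points for steady state and a dashed line at each array's median. Cx3cr1 and Cxcr3 are highest in the 4 CX3CR1hi arrays, Ccr2 in the splenic arrays (12.68 and 12.65) and Ccr7 in CX3CR1int Ly6Clo cells (11.66).

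In the CX3CR1hi arrays, where Cx3cr1 was highest, Ccr2, the receptor for CCL2, CCL7 and CCL12, was lowest. It was 11.09 in CX3CR1int Ly6Clo and 12.32 in CX3CR1int Ly6Chi cells. In CX3CR1hi cells it was 10.57 in F4/80hi cells in colitis, 10.79 in F4/80hi cells at steady state, 9.86 in reconstituted and 10.12 in resident macrophages. Splenic monocytes had 12.68 in colitis and 12.65 at steady state. No CX3CR1hi array reached any array of the other 2 populations. The gap between steady-state F4/80hi cells and CX3CR1int Ly6Clo cells (0.30) was, however, within the pooled SD (0.51). CX3CR1int Ly6Chi cells also lay within that SD of the splenic arrays.

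Ccr2 was 2.58-fold higher in CX3CR1int than in CX3CR1hi cells (log2 difference 1.37, SE 0.37, limma adjusted p = 0.027). Against the colitis CX3CR1hi array alone, at 10.57, both CX3CR1int arrays were also higher. The call ended without the resident array (adjusted p = 0.062), without the reconstituted array (0.059), without the CX3CR1int Ly6Chi array (0.12, difference 0.76), and with colitis (0.16) or labelled sex (0.08) as a term. In CX3CR1hi cells Ccr2 was 5.03-fold lower than in splenic monocytes (log2 difference -2.33, SE 0.37, limma adjusted p = 0.0015), and without the steady-state splenic array the difference was -2.35 (adjusted p = 0.016). The genes most like Ccr2 were Shisa5 (r = 0.986), Myd88, the adaptor of toll-like receptors (0.982), and Ptpre (0.982).

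Ccr1, a receptor of CCL3 and CCL5 whose gene neighbours Ccr2, followed neither of the others. It was 8.60 in CX3CR1int Ly6Clo and 10.47 in CX3CR1int Ly6Chi cells. The 4 CX3CR1hi arrays had 10.35 in F4/80hi cells in colitis, 10.50 in F4/80hi cells at steady state, 10.39 in reconstituted and 10.15 in resident macrophages, while splenic monocytes had 8.93 in colitis and 8.45 at steady state. The arrays fell into a high set, the CX3CR1hi arrays and CX3CR1int Ly6Chi cells, and a low set, both splenic arrays and CX3CR1int Ly6Clo cells. Within either set, neighbouring levels differed by less than the pooled SD (0.62), and the gap between the sets was 1.22.

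Against splenic monocytes, Ccr1 was 3.15-fold higher in CX3CR1hi cells (log2 difference 1.66, SE 0.44, limma adjusted p = 0.016). That call ended without the steady-state splenic array (1.42, adjusted p = 0.12) and without the colitis one (1.89, adjusted p = 0.051). CX3CR1int cells did not pass the test against CX3CR1hi (-0.81, adjusted p = 0.20) or splenic cells (0.84, adjusted p = 0.26). Each of these rested on unlike arrays. The first was -1.75 without the Ly6Chi array (limma adjusted p = 0.0014) and 0.12 without the Ly6Clo array, and the second was 1.78 without the Ly6Clo array (limma adjusted p = 0.0033) and -0.09 without the Ly6Chi array. Adamtsl4 (r = 0.983), Nt5dc2 (0.974) and Cd14 (0.969), which encodes a lipopolysaccharide co-receptor, were most like Ccr1, and Cd14 likewise stood at 9.39 in Ly6Clo and 11.82 in Ly6Chi CX3CR1int cells.

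Cxcr3, the receptor for the interferon-induced ligands CXCL9, CXCL10 and CXCL11 and best known on T and NK cells, was highest in CX3CR1hi macrophages. Its log2 signal was 5.75 and 5.70 in CX3CR1int Ly6Clo and Ly6Chi cells. It was 7.11 and 7.44 in CX3CR1hi F4/80hi cells in colitis and at steady state, 6.83 in reconstituted and 7.09 in resident macrophages, against 5.83 and 5.73 in splenic monocytes in colitis and at steady state. The CX3CR1int and splenic arrays lay near the array medians of 5.77 to 5.87, so their signals were dim. The deposited signals went down to 3.37, so the median is not a floor. Cxcr3 passed the brightness filter through the 4 CX3CR1hi arrays and the colitis splenic array. Without the former it would not have passed, so it entered the tests through the group where it was high. Its adjusted p-values are thus no independent support. The folds below are those of the measured signals, the true ones being possibly larger.

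The lowest CX3CR1hi array was above the highest of the other 4 by 1.00. Cxcr3 was 2.63-fold lower in CX3CR1int than in CX3CR1hi cells (log2 difference -1.39, SE 0.17, limma adjusted p = 0.0013). It was 2.53-fold higher in CX3CR1hi than in splenic cells (1.34, SE 0.17, limma adjusted p = 5e-04), and 1.29 (adjusted p = 0.009) without the steady-state splenic array. The 9 T cell markers averaged 5.53 to 5.73 in CX3CR1int, 5.64 to 5.92 in CX3CR1hi and 4.89 to 5.07 in splenic arrays, and the 7 NK markers 5.16 to 5.20, 4.54 to 4.61 and 4.82 to 4.92 in the same order. The T cell receptor subunits Cd3e, Cd3d and Cd3g reached at most 5.86 in CX3CR1int arrays and 5.06 in CX3CR1hi arrays. Cd4, however, was 10.16 to 10.80 in CX3CR1hi arrays and at most 5.68 elsewhere, and Il7r was 10.01 and 8.10 in the CX3CR1int arrays, 7.65 to 9.64 in CX3CR1hi and 6.08 and 5.16 in splenic arrays. Their part in the Cxcr3 difference was not tested. The genes most like Cxcr3 were Ms4a7 (0.986), Agmo (0.986) and Igf1 (0.985), and Ms4a7, a gene of tissue macrophages, was 11.58 to 12.28 in the CX3CR1hi arrays and 7.72 to 8.11 elsewhere.

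Cxcr4, which binds CXCL12 and holds leukocytes in the bone marrow, was bright in every array. It was 11.58 and 11.64 in CX3CR1int Ly6Clo and Ly6Chi cells, between 11.68 and 11.83 in the 4 CX3CR1hi arrays, and 11.13 and 11.35 in splenic monocytes in colitis and at steady state. All 6 colonic arrays were above both splenic arrays, over a span of under 1 on the log2 scale. CX3CR1hi cells were 1.44-fold above splenic monocytes (log2 difference 0.53, SE 0.11, limma adjusted p = 0.006), which did not hold without the colitis splenic array (0.42, adjusted p = 0.078) and did without the steady-state one (0.64, adjusted p = 0.022). CX3CR1int cells did not pass against CX3CR1hi (-0.16, adjusted p = 0.32) or splenic cells (0.37, adjusted p = 0.078). Epithelial, plasma cell and stromal markers also averaged higher in the colonic than in the splenic arrays, and their part in the Cxcr4 difference was not tested. Hsp90b1, which encodes a chaperone of the endoplasmic reticulum, was most like Cxcr4 (r = 0.982), followed by Rab7b and Skil (0.973 each).

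Ccrl2 encodes an atypical receptor that binds chemerin and does not signal through G proteins. It was 11.43 in CX3CR1int Ly6Clo and 11.90 in CX3CR1int Ly6Chi cells. In CX3CR1hi cells it was 11.99 in F4/80hi cells in colitis, 11.96 in F4/80hi cells at steady state, 12.19 in reconstituted and 12.08 in resident macrophages. Splenic monocytes had 9.96 in colitis and 8.18 at steady state. The 6 colonic arrays lay within the pooled SD (0.59) of their neighbours in order, and both splenic arrays stood below them and apart from each other.

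Ccrl2 was 7.90-fold higher in CX3CR1hi than in splenic cells (log2 difference 2.98, SE 0.42, limma adjusted p = 9e-04) and 6.05-fold higher in CX3CR1int than in splenic cells (2.60, SE 0.49, limma adjusted p = 0.0091). Without the steady-state splenic array these were 2.09 (adjusted p = 0.0012) and 1.70 (adjusted p = 0.012), and without the colitis one they were 3.88 and 3.49. With only the arrays of the second comparison in its fit, that call ended (adjusted p = 0.088). The CX3CR1int and CX3CR1hi means, 11.67 ± 0.33 (SD, n = 2) and 12.05 ± 0.10 (SD, n = 4), did not pass the test (-0.39, adjusted p = 0.52). The genes most like Ccrl2 were Junb, a subunit of the AP-1 transcription factor (r = 0.993), and the epithelial genes Lypd8 (0.989) and Car1 (0.988). Lypd8 was 12.27 to 13.27 in the colonic arrays and 5.10 to 7.94 in the splenic ones. All 12 epithelial markers passed the test as higher in CX3CR1hi than in splenic cells (22.2% over all genes). For CX3CR1int against splenic cells 11 of 12 did (10.2% over all genes). In the splenic arrays 5 of 12 were above the array median in colitis and 0 at steady state. They thus entered the test through the colonic arrays, where they were high, and their calls are no independent support. The part of epithelial RNA in the Ccrl2 difference was not tested.

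Ccr7, the receptor for CCL19 and CCL21, was higher in CX3CR1int cells than in both other populations. It was 11.66 in CX3CR1int Ly6Clo and 9.21 in CX3CR1int Ly6Chi cells. In CX3CR1hi cells it was 6.36 in F4/80hi cells in colitis, 6.33 in F4/80hi cells at steady state, 6.52 in reconstituted and 6.33 in resident macrophages, and splenic monocytes had 6.69 in colitis and 6.25 at steady state. The 2 CX3CR1int arrays stood 2.45 apart, and the lower of them was 2.52 above the next array. The order among the other 6 was within the pooled SD of 0.79.

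The mean of Ccr7 was 10.44 ± 1.73 in CX3CR1int (SD, n = 2), 6.39 ± 0.09 in CX3CR1hi (SD, n = 4) and 6.47 ± 0.31 in splenic cells (SD, n = 2). It was 16.6-fold higher in CX3CR1int than in CX3CR1hi cells (log2 difference 4.05, SE 0.56, limma adjusted p = 0.0025) and 15.7-fold higher than in splenic cells (3.97, SE 0.65, limma adjusted p = 0.0053). Without the steady-state splenic array the second was 3.75 (adjusted p = 0.048), and with only the 4 arrays of that comparison in the fit its adjusted p was 0.072. Leaving out the Ly6Clo array brought the first to 2.82, and leaving out the Ly6Chi array to 5.27. CX3CR1hi and splenic cells did not pass (-0.08, adjusted p = 0.91).

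Ccr9, the receptor for CCL25 that directs lymphocytes and plasmacytoid dendritic cells to the small intestine, and Ccr6, the receptor for CCL20, were dim. Ccr9 was 7.55 in CX3CR1int Ly6Clo and 5.68 in CX3CR1int Ly6Chi cells, 4.41 to 5.24 in the CX3CR1hi arrays, and 4.82 and 4.84 in splenic monocytes in colitis and at steady state. Only the Ly6Clo value exceeded its array's median. Ccr6 was 5.37 in CX3CR1int Ly6Clo cells and 4.19 to 4.39 in the other 7 arrays, so it was below the median everywhere, although the Ly6Clo array stood 0.98 above the next, more than the pooled SD of 0.34. The brightness filter asked for 2 or more arrays in which a gene reached the array median, so neither gene was tested.

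Ccr7, Ccr9 and Ccr6 were thus all highest in CX3CR1int Ly6Clo cells, the array where the mean of the dendritic cell markers was also highest. All 12 dendritic cell markers were above the array median there, 10 of 12 in CX3CR1int Ly6Chi cells, and 8 or 9 of 12 in the other 6 arrays. Fscn1, an actin bundler of mature dendritic cells, was 11.29 in the Ly6Clo array and 5.25 to 7.22 in the other 7. Ccl22, a chemokine of mature dendritic cells, was 10.69 there and 4.60 to 5.73 elsewhere, and Zbtb46, a transcription factor of conventional dendritic cells, was 6.86 against 4.38 to 4.67. Flt3, a growth factor receptor of dendritic cells and their precursors, was 11.16 in Ly6Clo and 9.03 in Ly6Chi CX3CR1int cells, 4.87 to 5.32 in CX3CR1hi and 8.80 to 8.85 in splenic arrays. Cd83 and Cd24a were exceptions, at 12.30 and 11.10 in the Ly6Clo array and up to 12.58 and 11.29 in CX3CR1hi arrays. The mean of 4 plasmacytoid dendritic cell markers was 7.90 in the Ly6Clo array and 7.27 to 7.85 in the other 7. Among them Spib was 8.04 in Ly6Clo cells and 4.53 to 5.67 elsewhere, whereas Siglech was 5.64 there, below the array median of 5.84, and 6.72 to 7.63 in CX3CR1hi arrays. The part of dendritic cells in the 3 receptor differences was not tested.

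The genes most like Ccr7 were Wnt11 (r = 0.997), P2ry10 (0.995) and the signalling adaptor Traf1 (0.993), which is itself among the dendritic cell markers. Those most like Ccr9 were Zfp366 (0.988), Dennd3 (0.982) and Mideas (0.977), and those most like Ccr6 were Mphosph9 (0.990), the MHC class II gene H2-Eb2 (0.983) and Ezh2 (0.979). These correlations span only 8 arrays, with the Ly6Clo array the highest for all 3 receptor genes.

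**Figure D2:**
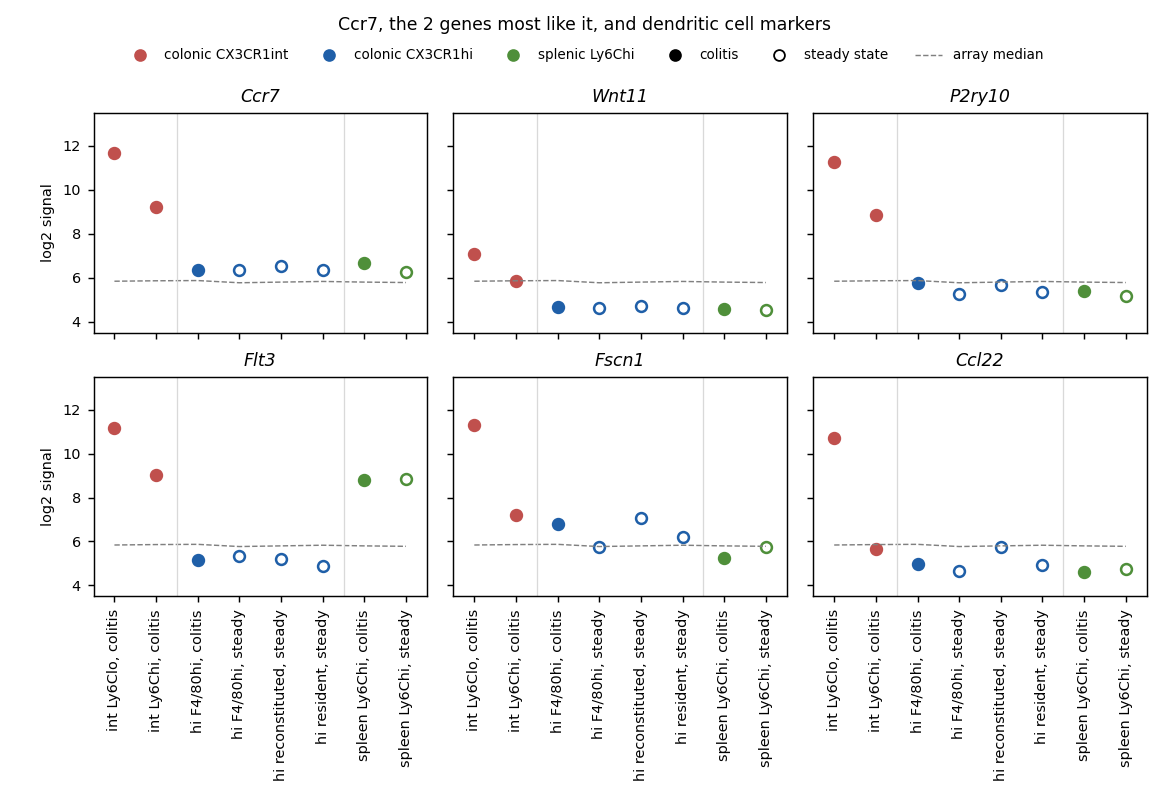
Log2 signal (vertical axes) of Ccr7, of the 2 genes most like it, Wnt11 and P2ry10, and of the dendritic cell markers Flt3, Fscn1 and Ccl22 in each of the 8 arrays (horizontal axes), with the array median dashed, filled points for colitis and open points for steady state. All 6 are highest in CX3CR1int Ly6Clo cells, and Flt3 is also above the median in splenic monocytes (8.80 and 8.85).

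Of the 9 genes, 7 passed the brightness filter, and 6 were tested once Cx3cr1 was set aside. A gene was called at a limma adjusted p under 0.05 over the 10673 genes tested. Between CX3CR1int and CX3CR1hi cells 3 of the 6 were called, Ccr2 and Ccr7 as higher and Cxcr3 as lower, where 29.9% of all tested genes were called, 13.3% as higher and 16.6% as lower. Between CX3CR1hi and splenic cells 5 of 6 were called, Ccr1, Cxcr3, Cxcr4 and Ccrl2 as higher and Ccr2 as lower, where 51.2% of all genes were called, 22.2% as higher and 29.0% as lower. That count was 4 without the steady-state splenic array and 3 without the colitis one. Between CX3CR1int and splenic cells 2 of 6 were called, Ccr7 and Ccrl2, both higher, where 24.4% of all genes were called, 10.2% as higher and 14.2% as lower, and the count was also 2 without the steady-state splenic array. With 6 genes these counts are descriptions, and the comparisons share arrays. Cxcr3, in the first and the second count, entered the test through its CX3CR1hi arrays, where it was high. Marker genes of other cell types moved with all 3 comparisons. Epithelial markers were called as higher in CX3CR1hi than in splenic cells (12 of 12) and in CX3CR1int than in splenic cells (11 of 12), and as lower in CX3CR1int than in CX3CR1hi cells (7 of 12). They had entered the test through the colonic arrays, so their calls against splenic cells are no independent support. Of 10 dendritic cell markers tested, 5 were called as higher in CX3CR1int than in CX3CR1hi cells and 6 as higher than in splenic cells. Their part in the receptor differences was not tested.

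**Figure D3:**
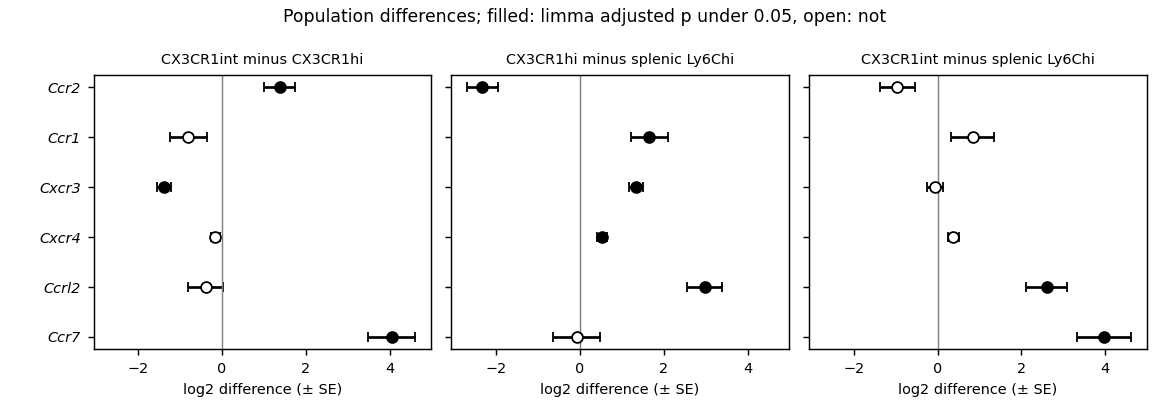
Log2 difference between populations (horizontal axes, bars ± SE from limma) for the 6 tested receptor genes (vertical axis), filled where the adjusted p was under 0.05. Ccr2 lies to the right for CX3CR1int minus CX3CR1hi (1.37) and to the left for CX3CR1hi minus splenic Ly6Chi (-2.33), while Ccr7 lies near 4 in both comparisons that involve CX3CR1int cells (4.05 and 3.97).

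The 2 CX3CR1int arrays differ in the Ly6C gate and stand for 1 array each, so differences between them have no replicate check. Ccr7 was 2.45 higher in Ly6Clo than in Ly6Chi cells on the log2 scale and Ccr9 1.87 higher. Ccr1 fell by 1.87 and Ccr2 by 1.22 in Ly6Clo relative to Ly6Chi cells. These 4 were at least 2-fold apart among 7 genes with at least 1 of both arrays at or above its median, where 12.0% of 10132 genes were. Cx3cr1 (-0.44), Cxcr4 (-0.06) and Ccrl2 (-0.47) were within 2-fold, and Ccr6, below the filter, differed by 1.04.

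Ly6Chi cells from the 2 tissues were compared within colitis. CX3CR1int Ly6Chi cells of the colon had Ccr7 at 9.21 against 6.69 in splenic Ly6Chi monocytes (difference 2.52), Ccrl2 at 11.90 against 9.96 (1.94) and Ccr1 at 10.47 against 8.93 (1.54). Cx3cr1 was 7.95 against 9.95 (-2.00). These 4 of 7 genes were at least 2-fold apart, as were 13.7% of 10087 genes. Ccr2 was nearly level, at 12.32 against 12.68 (-0.37), and Cxcr4 was 11.64 against 11.13 (0.51). Dendritic cell markers averaged 8.87 in the colonic and 7.60 in the splenic array of this pair, and epithelial markers 9.51 and 5.95, and their part in these differences was not tested.

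**Figure D4:**
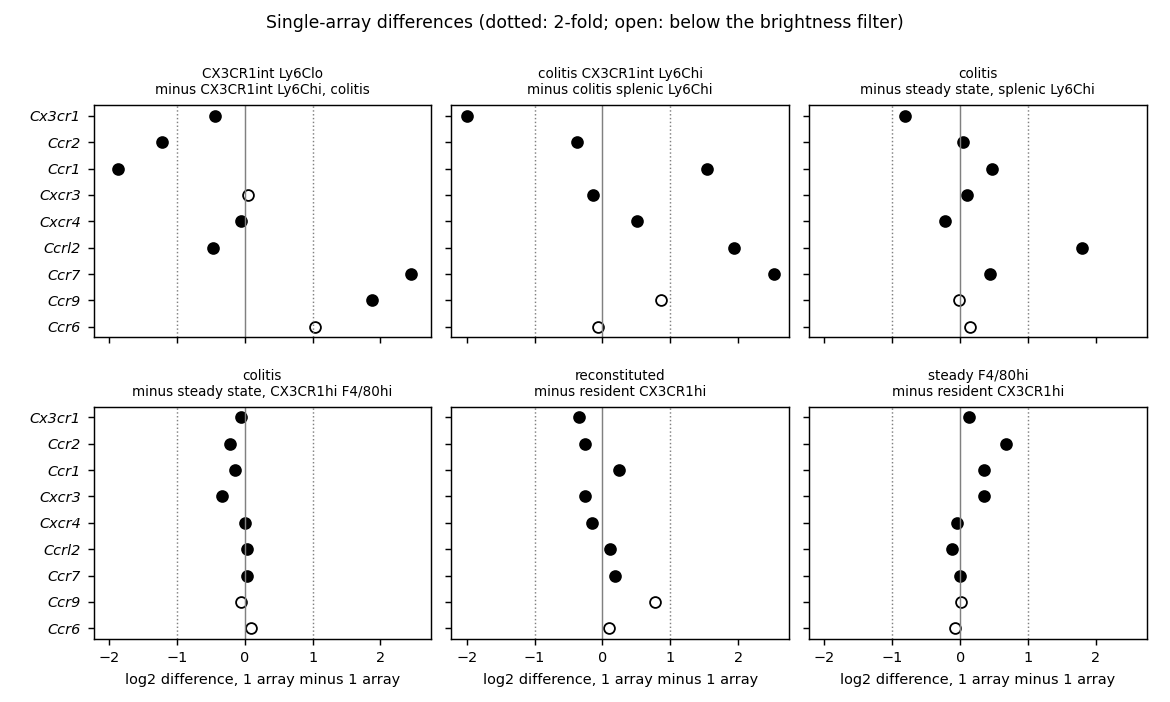
Log2 difference of 1 array minus 1 array (horizontal axes) for the 9 receptor genes (vertical axes) in 6 comparisons without replicates, with dotted lines at 2-fold and open points for genes below the brightness filter. Differences past 2-fold appear between the CX3CR1int arrays, between Ly6Chi cells of colon and spleen, and for Ccrl2 in splenic monocytes (1.79), and no receptor passes 2-fold among the CX3CR1hi arrays.

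Colitis was compared with steady state in 2 pairs of arrays that were matched by sort gate and tissue only. In CX3CR1hi F4/80hi cells 0 of 7 genes were 2-fold apart, where 1.47% of 10284 genes were, and their differences ran between -0.33 for Cxcr3 and 0.03 for Ccr7 and Ccrl2. The median over all genes in that pair was 0.10, which centring the arrays brought to 0.00, so differences no larger than 0.10 carry no direction. The larger ones have no replicate check. In splenic monocytes 1 of 7 was 2-fold apart, where 0.707% of 9471 genes were: Ccrl2 was 9.96 in colitis against 8.18 at steady state, a 3.45-fold difference. In the same splenic pair Cx3cr1 differed by -0.81, Ccr1 by 0.47, Ccr7 by 0.44 and Ccr2 by 0.04. Ccrl2 did not stand alone in the colitis splenic array. Its closest match Junb was 8.64 in colitis against 7.55 at steady state, the chemokine genes Ccl3 and Ccl2 were 11.51 against 8.12 and 9.17 against 6.43, and Rgs1, a regulator of G protein signalling, was 9.73 against 5.78. Epithelial markers averaged 5.95 against 5.11, with 5 against 0 of 12 above the array median, and Car1 was 7.62 against 5.02. The sex labels of the splenic pair differ too, and the part of these in the Ccrl2 difference was not tested.

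With population held equal over all 8 arrays, limma called 0 of the 6 genes for colitis, and 0 at an unadjusted p under 0.05, where 0.0% of 10673 genes were called and 1.29% had an unadjusted p under 0.05. The colitis term was 0.66 for Ccrl2 (SE 0.39, limma adjusted p = 1.0) and between -0.07 and 0.21 for the other 5 tested genes. Whether the colitis difference of Ccrl2 was larger in splenic than in CX3CR1hi cells was examined with an interaction term added because of these same values, so its p is no independent evidence. Each splenic arm and the colitis CX3CR1hi arm was 1 array. They were assumed to vary like the steady-state CX3CR1hi arrays and the CX3CR1int pair, whose arrays differ in the Ly6C gate. The difference of differences was 1.87 (SE 0.38, limma unadjusted p = 0.00324, adjusted p = 1.0), where 1.21% of all genes had an unadjusted p under 0.05 and 0.0% were called.

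Macrophages reconstituted from monocytes and resident macrophages were within 2-fold for each receptor gene that passed the filter. Of 7 genes 0 were 2-fold apart, where 1.76% of 10375 genes were, with differences between -0.34 for Cx3cr1 and 0.24 for Ccr1, reconstituted minus resident. Ccr2 was 9.86 in reconstituted and 10.12 in resident macrophages, the 2 lowest values of the 8 arrays. Steady-state F4/80hi cells against resident macrophages, the nearest to a repeat in the labels, also had 0 of 7 genes 2-fold apart, where 3.64% of 10386 genes were, and Ccr2 differed most (0.68). The F4/80hi array was labelled male and the resident one female, whereas the reconstituted and the resident array were both labelled female. With 1 array each, the reconstituted and resident cells are not shown to have equal levels.

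Among 16 other receptors of the family, 5 passed the filter. Xcr1, a receptor of cross-presenting dendritic cells, was 8.19 in CX3CR1int Ly6Clo and 6.74 in Ly6Chi cells and 5.42 to 5.82 in the other 6 arrays. Xcr1 reached the array median only in the CX3CR1int arrays, and so entered the test through the group where it was high. Its adjusted p-values are thus no independent support. It was called as higher in CX3CR1int than in CX3CR1hi cells (log2 difference 1.86, limma adjusted p = 0.0077) and than in splenic cells (2.01, adjusted p = 0.011), the second call ending without the steady-state splenic array (1.96, adjusted p = 0.077), without the colitis one (2.05, adjusted p = 0.059) and with only that comparison's arrays (adjusted p = 0.092). Gpr35, a G protein-coupled receptor of gut and myeloid cells, was called as higher in CX3CR1int than in CX3CR1hi cells (1.85, limma adjusted p = 0.001) and as lower in CX3CR1hi than in splenic cells (-1.35, adjusted p = 0.0013), the same directions as Ccr2. Without the steady-state splenic array the second was -1.36 (limma adjusted p = 0.016). Ackr1, an atypical receptor that binds chemokines without signalling, was called as higher in CX3CR1int than in splenic cells (0.63, limma adjusted p = 0.038), but not without the steady-state splenic array (0.73, adjusted p = 0.12) or the colitis one (0.54, adjusted p = 0.19), nor with only that comparison's arrays (adjusted p = 0.14). Ackr1 is also one of the endothelial markers, of which 5 of 6 tested were called as higher in the same comparison. In all, 2 of 5 were called as higher in CX3CR1int than in CX3CR1hi cells (13.3% over all genes), 1 of 5 as lower in CX3CR1hi than in splenic cells (29.0% over all genes), and 2 of 5 as higher in CX3CR1int than in splenic cells (10.2% over all genes). The last count was 0 when either splenic array was left out. Xcr1 is in the first and in the last count. The median difference was 0.86, 0.15 and 0.49, beside 0.01, -0.12 and -0.08 over all genes.

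Of 19 genes for ligands of these receptors 16 were tested. The CCR2 ligand genes Ccl2, Ccl7 and Ccl12 were highest in the CX3CR1hi arrays. Between CX3CR1hi and splenic cells 9 of 16 were called as higher and 2 as lower (22.2% and 29.0% over all genes; median 1.48, all genes -0.12), and 9 and 1 without the steady-state splenic array. The largest called differences were those of Ccl8 (6.23, limma adjusted p = 9.8e-05), Ccl7 (5.49, 8e-06), Ccl12 (4.44, 1.2e-05) and Ccl4 (3.56, 7.5e-05). Without the steady-state splenic array these were 5.44, 5.31, 4.36 and 3.05 in the same order, and all 4 were called. Between CX3CR1int and CX3CR1hi cells 1 was called as higher and 3 as lower (13.3% and 16.6% over all genes; median -0.42, all genes 0.01), and 1 and 6 with either splenic array left out of the fit. The 3 lower ones were Ccl8 (-4.44, limma adjusted p = 0.0016), Ccl12 (-4.08, 7.1e-05) and Ccl7 (-3.07, 3e-04), and the higher one was the CXCR3 ligand Cxcl11 (2.34, 0.0037). Ccl12 was 5.29 and 4.62 in CX3CR1int Ly6Clo and Ly6Chi cells, 8.70 to 9.29 in CX3CR1hi arrays, and 4.68 and 4.51 in splenic monocytes in colitis and at steady state. Only its CX3CR1hi values reached the array median, so Ccl12 entered the test through the group where it was high. Its adjusted p-values are thus no independent support, and it is among the ligand genes counted as called. Ccr2 itself was lowest in the CX3CR1hi arrays.

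Between CX3CR1int and splenic cells 6 of 16 ligand genes were called as higher and 1 as lower (10.2% and 14.2% over all genes; median 1.37, all genes -0.08), and 5 and 0 without the steady-state splenic array. The largest differences among called genes were those of Ccl4 (2.64, limma adjusted p = 0.0023), of the CCR1 ligand gene Ccl5 (2.46, 0.045), of Cxcl11 (2.46, 0.006) and of Ccl7 (2.42, 0.0018). With only that comparison's arrays in the fit, Ccl4 (limma adjusted p = 0.039) and Ccl7 (0.023) were called, and Ccl5 (0.064) and Cxcl11 (0.056) were not. Without the steady-state splenic array Ccl4 (2.13, limma adjusted p = 0.012), Cxcl11 (2.56, 0.04) and Ccl7 (2.24, 0.021) were still called and Ccl5 (2.27, 0.20) was not. Cxcl11 was 8.66 and 7.42 in CX3CR1int Ly6Clo and Ly6Chi cells and 5.39 to 6.16 in the other 6 arrays, whereas its receptor gene Cxcr3 was near the array median in both CX3CR1int arrays.

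Of 24 genes tested that relay or end receptor signals, 3 were called as higher and 15 as lower in CX3CR1hi than in splenic cells (22.2% and 29.0% over all genes; median -0.54, all genes -0.12). The lower count was 10 without the steady-state splenic array and 12 without the colitis one. Rgs1 was higher (5.16, limma adjusted p = 0.0023), whereas the receptor kinase gene Grk5 (-3.49, 0.0013) and the regulators Rgs18 (-2.65, 7e-05) and Rgs14 (-2.07, 1.9e-04) were lower. All 4 were called without the steady-state splenic array, Rgs1 then at 3.19, and Rgs1 was 7.14 without the colitis one. Between CX3CR1int and CX3CR1hi cells 7 were called as higher and 2 as lower (13.3% and 16.6% over all genes; median 0.18, all genes 0.01), among them Rgs18 (1.54, limma adjusted p = 0.0027), Grk6 (0.97, 0.0014), Pik3r5 (0.87, 0.0019) and the phospholipase gene Plcb3 (-0.92, 0.0077). Between CX3CR1int and splenic cells 2 were called as higher and 6 as lower (10.2% and 14.2% over all genes; median -0.32, all genes -0.08), and 1 and 1 when either splenic array was left out. The largest called differences were those of Rgs1 (3.74, limma adjusted p = 0.036), Grk5 (-2.14, 0.042), Rgs14 (-1.22, 0.011) and Rgs18 (-1.11, 0.018). With only that comparison's arrays in the fit, none of these was called (limma adjusted p = 0.16, 0.17, 0.057 and 0.087 in the same order). Without the steady-state splenic array Rgs1 was 1.77 (limma adjusted p = 0.034), and Grk5 (0.17), Rgs14 (0.072) and Rgs18 (0.12) were no longer called. For colitis 0 genes of the 3 groups were called.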

How the data were processed

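Total RNA of sorted cells was hybridised to Affymetrix arrays, 1 per group. The deposited values were log2 signals between 3.37 and 14.31. They were made with RMA, a background correction, quantile normalization and probe summary, and with Partek, per the submitters' processing notes. Versions and build: not given in the sources used here. Of 35399 probe sets, 21789 had 1 gene symbol in the platform annotation, 1621 several and 11989 none listed; 21698 matched RefSeq, which changed 0 symbols. The 19938 genes were taken at their brightest probe set.

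Populations were compared with limma 3.58.1 in R 4.3.3 (lmFit, eBayes; population as the term, then population and colitis) on the 10673 genes that reached the array median in 2 or more arrays, with Benjamini-Hochberg adjustment, and tested on simulated data. Cx3cr1 was not tested. Single arrays were compared without a test, for genes with the brighter array at or above its median, 2-fold being a log2 difference of at least 1. Python 3.11.15, numpy 2.4.6, pandas 2.3.3 and matplotlib 3.10.9 did the rest. The number of arrays limits the precision. The named genes are the 9 receptors, the 3 genes with the highest Pearson r to each, and up to 4 called genes with the largest change per list and contrast. Cell type markers named beside a result, and Ccl2, Ccl3 and the sex-linked genes, were picked after their values were seen. Members and lists were chosen with earlier results of these data known. Protein sequences were not used here.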

Additional observations from a re-analysis of the deposited data

Results flagged for a closer look

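Ccr9 was 5.24 in reconstituted macrophages and 4.41 to 4.47 in the other 3 CX3CR1hi arrays. The gap to the nearest array was 0.927 of the range of the 4, past Dixon's limit for 4 values, which chance passes in about 1 of 20 groups, and all 4 values were below the array medians.

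For 4 receptor genes the colitis difference in splenic Ly6Chi monocytes and that in CX3CR1hi F4/80hi cells had opposite signs or 1 was 0. Ccr1 differed by 0.47 in splenic cells and by -0.15 in F4/80hi cells, Ccr2 by 0.04 and -0.22, Cxcr3 by 0.10 and -0.33, and Cxcr4 by -0.22 and 0.00. Each pair is 1 array against 1, and the 4 were picked for their signs. The interaction term, in which the lone arrays are assumed to vary like the others and the CX3CR1hi side uses all 4 arrays, gave limma unadjusted p-values of 0.674 for Ccr1, 0.762 for Ccr2, 0.792 for Cxcr3 and 0.403 for Cxcr4, with an adjusted p of 1.0 for each.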

How the results depend on the processing

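With 1 array a group and 3 populations of unlike arrays, a call depends on few arrays. No paired analysis was possible because the labels give no replicate numbers. Of the receptor genes, 5 were called between CX3CR1hi and splenic cells, and 3 to 5 with each array left out in turn. Between CX3CR1int and splenic cells 2 were called, but 0 with only the arrays of that comparison in the fit, which had adjusted p-values of 0.072 for Ccr7 and 0.088 for Ccrl2. Cxcr4 was called there after a repeated quantile normalization (0.44, adjusted p = 0.048) and with a trended and robust prior (adjusted p = 0.043), and Ccr2 without the CX3CR1int Ly6Chi array (-1.57, adjusted p = 0.015). No receptor gene's called difference changed sign under any alternative run, and the colitis count stayed at 0 in all 14. Over all genes, the counts were 3186 for CX3CR1int against CX3CR1hi (972 with colitis and 1992 with labelled sex as a term, 1480 with a 2-fold minimum as well), 5466 for CX3CR1hi against splenic (3505 with a 75th percentile filter, which tests fewer genes, 3246 and 3480 without the steady-state and the colitis splenic array, 2589 with a 2-fold minimum), and 2605 for CX3CR1int against splenic cells (1643 with a colitis term, 947 with its own arrays only, 735 and 1016 without the steady-state and the colitis splenic array, 1338 with a 2-fold minimum). The causes were not tested. Among the related genes, those that relay signals and were lower in CX3CR1hi than in splenic cells numbered 15, and 6 to 15 under the alternatives. Between CX3CR1int and splenic cells, signal genes called as higher numbered 2 (0 to 3 under the alternatives) and as lower 6 (1 to 9), and other receptors called as higher 2 (0 to 4). Signals near or below the array median are dim, which limits Ccr6, Ccr9 and the low values of Cxcr3. The planned comparison of receptor proteins was not run.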
